A study of Mus musculus with 6 samples.

Results

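Cell cycle genes and the genes that act in cell cycle exit were compared between H10 cells, which form large multinucleated osteoclasts on longer culture with RANKL, the cytokine that drives osteoclast formation, and C8 cells, which do not fuse. The list held 38 genes, chosen by name as S phase and mitosis genes, cyclins, cyclin-dependent kinases (CDKs) and their inhibitors. Of these, 36 were measured among 19930 genes on the arrays, and a gene with several array features was represented by the feature with the highest mean value. Cdkn1a was left out because its feature also carried a second gene symbol, and Ccnb1 was not analysed here. D-type cyclins with CDK4 and CDK6 start the passage through G1 by phosphorylating the retinoblastoma protein, which frees E2F factors to switch on the genes of DNA replication. Cyclin E and cyclin A with CDK2 then carry cells through S phase, and cyclin B with CDK1 drives mitosis. CDK inhibitors of the Cip/Kip and INK4 families hold these kinases back, and precursors of osteoclasts leave the cell cycle before they fuse.

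Gene expression was measured in total RNA on 3 arrays of H10 cells and 3 arrays of C8 cells. Both lines came from RAW264.7 cells, a mouse macrophage line, carried a retroviral Lifeact-mEGFP transgene with puromycin resistance, and were picked as single clones by limiting dilution. Both had been cultured for 2 days with recombinant sRANKL at 60 ng/mL, so that no unstimulated cells were compared. Each phenotype therefore rests on 1 clone, and differences between H10 and C8 cells cannot be told apart from other differences between the clones. Signals were analysed as deposited, on the log2 scale after RMA normalization by the authors, and a log2 fold change is H10 minus C8, positive where H10 cells were higher. Whether the replicates of H10 or of C8 were grown as separate cultures is stated neither in the labels nor in the methods, so the p-values measure only how far these arrays spread, and that spread may be technical.

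The median log2 value of an array was 7.69 to 7.72 in H10 and 7.65 to 7.74 in C8 cells. Of 10 macrophage markers, 7 lay above the upper quartile of every array, and 1, Adgre1, which encodes the surface marker F4/80, rose in H10 cells (log2 fold change 2.02), while 4 had an unadjusted p under 0.05, all higher in H10 cells. None of 16 measured markers of lymphocytes, fibroblasts, osteoblasts, endothelium and epithelium lay above that quartile. Those 16 had mean values of 5.37 to 8.62, and none passed the test between the lines (2 had an unadjusted p under 0.05 by limma). Of 8 osteoclast markers, 6 rose in H10 cells and 2 did not pass the test, 1 of these with a negative log2 fold change, -0.34. For comparison, 1.85% of all genes rose in H10 cells by limma at an adjusted p under 0.05.

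Few of the cell cycle genes differed between the lines by more than the spread between arrays. By limma, with an adjusted p under 0.05 over all features, 0 of the 36 genes were higher in H10 cells, where 1.85% of all genes were, and 1 gene, cyclin B2 (Ccnb2), was lower, where 1.04% of all genes were. At an unadjusted p under 0.05, 1 of the 36 was higher and 2 were lower, which is 8.33% of them against 13.8% of all genes. Among the 11189 genes brighter than 7.7, the median of the table, as all but 1 of the 36 were, 2.94% were higher, 1.67% were lower and 20.2% had an unadjusted p under 0.05. The median log2 fold change was -0.03 over the 36 genes and -0.03 over all genes. The median of its absolute size was 0.09 over the 36 genes and 0.07 over all genes. Most of these genes were bright, as 30 of the 36 lay above the upper quartile of every array. In bulk RNA, a lower share of cycling cells and less RNA per cell cannot be told apart.

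**Figure D1:**
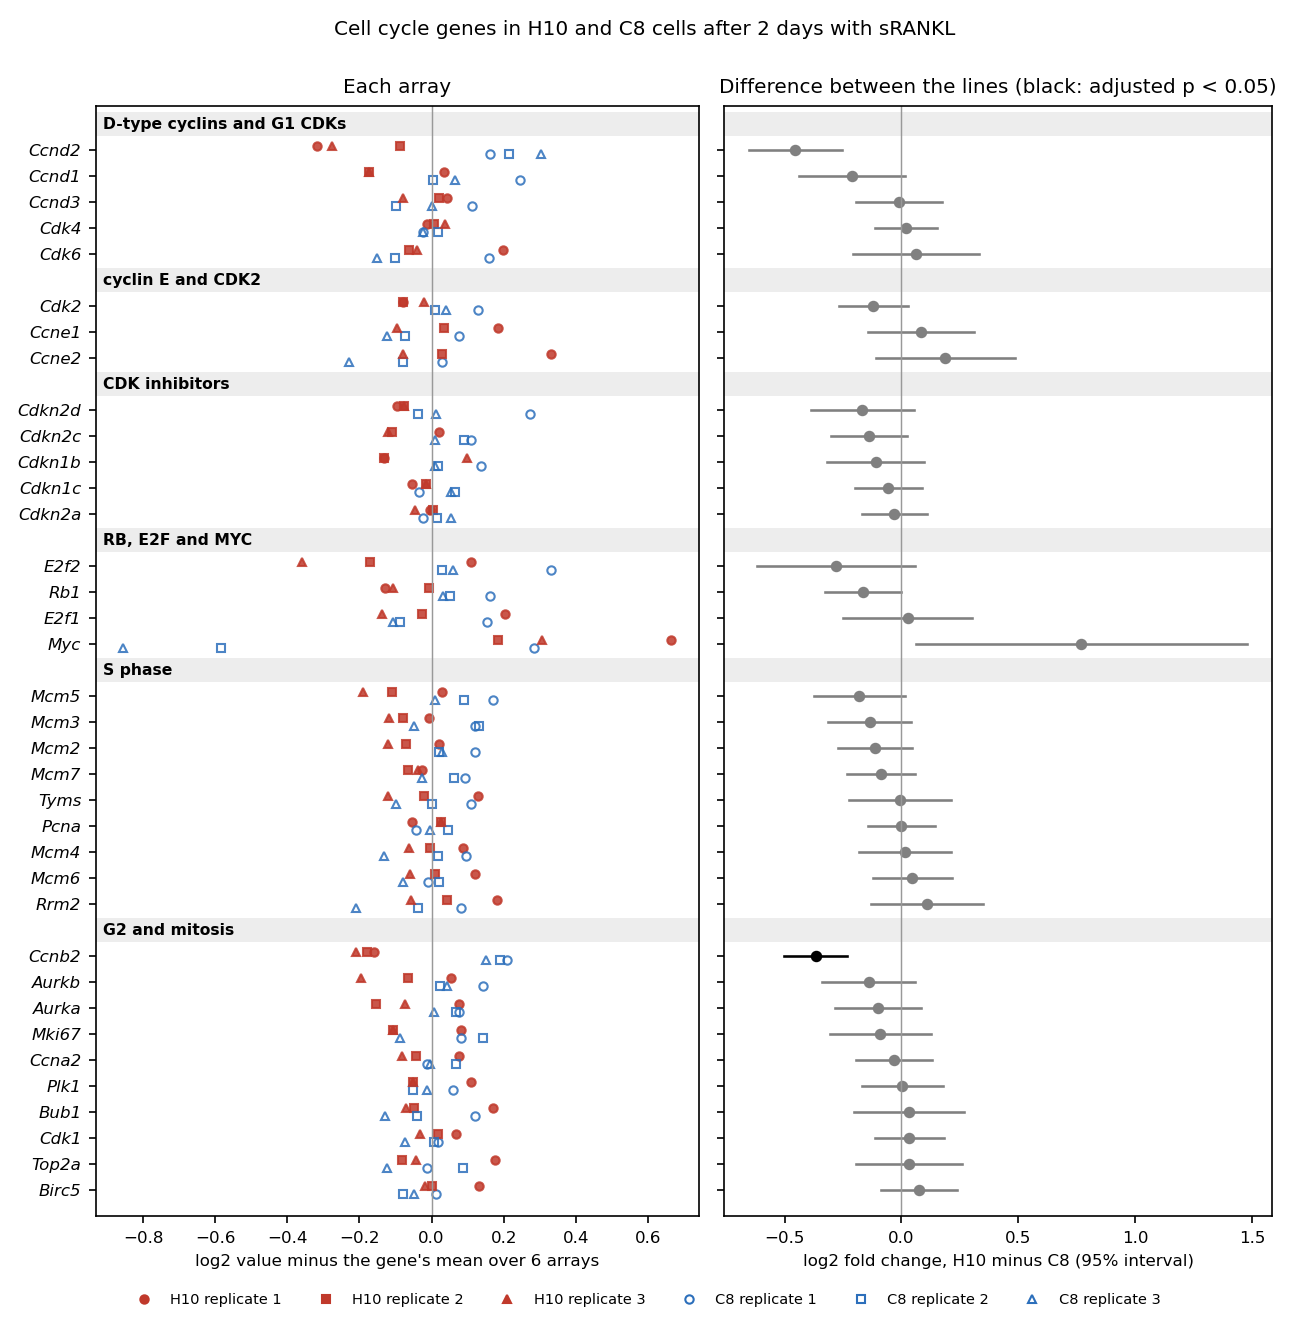
Left, the log2 value of each of the 36 cell cycle genes on each array, as its distance from the gene's mean over 6 arrays, with H10 arrays as filled red and C8 arrays as open blue symbols; right, the log2 fold change with its 95% interval from limma. Ccnb2, in black, passed the test. Ccnd2, Cdk2, Cdkn2d and Rb1 also show every H10 array below every C8 array, as did 12.7% of all genes. Myc shows the widest interval, 0.06 to 1.48.

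G2 and mitosis genes gave the 1 call. Ccnb2, whose protein activates CDK1 at entry into mitosis, had log2 values of 13.14, 13.12 and 13.09 in H10 cells, against 13.51, 13.49 and 13.45 in C8. Every H10 array lay below every C8 array, and within each line the arrays spanned less than the gap between the lines. The mean was 13.12 ± 0.03 in H10 and 13.48 ± 0.03 in C8 cells (SD, n = 3 each), so that Ccnb2 was 1.29-fold higher in C8 cells (difference -0.37 ± 0.06 log2 units, SE, adjusted p = 0.0291 from limma). This call rested on all arrays together: leaving out any single array gave an adjusted p of 0.0579 to 0.163, with log2 fold changes of -0.38 to -0.35, and centring each array on its median gave an adjusted p of 0.0543.

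The other 9 mitosis genes did not pass the test, and their log2 fold changes ran from -0.14 to 0.08. Their individual 95% intervals, which are not adjusted for the number of genes, lay between -0.34 and 0.27, so that differences beyond 1.26-fold toward C8 and 1.20-fold toward H10 cells lay outside all of them. Cdk1, the kinase that cyclin B proteins activate, had log2 values of 12.63, 12.58 and 12.53 on the 3 H10 arrays, against 12.58, 12.57 and 12.49 in C8. The arrays of both lines overlapped for Cdk1, with a log2 fold change of 0.03 (95% interval -0.11 to 0.18). Mki67, which encodes the proliferation marker Ki-67, had 12.72, 12.53 and 12.53 on the 3 H10 arrays, against 12.72, 12.78 and 12.55 in C8. Top2a, the topoisomerase that untangles replicated chromosomes, had 12.08, 11.82 and 11.86 on the 3 H10 arrays, against 11.89, 11.99 and 11.78 in C8. For both genes the lines overlapped, with log2 fold changes of -0.09 and 0.03, and when the features of Top2a were averaged its value was 0.19 (adjusted p = 0.673). Cyclin A2 (Ccna2), the Polo-like kinase Plk1, the checkpoint kinase Bub1 and the Aurora B partner survivin (Birc5) had log2 fold changes of -0.03, 0.00, 0.03 and 0.08. The Aurora kinase genes Aurka and Aurkb, which act at the spindle poles and at the centromeres, had -0.10 (95% interval -0.28 to 0.08) and -0.14 (95% interval -0.34 to 0.06).

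The start sites of Ccnb2, of 2 mitosis genes that did not pass the test and of 2 S phase genes are shown to set their short motifs side by side; the CCAAT box is the motif that all of them hold. The sequences are from RefSeq (GRCm38.p6), each from 120 bases before to 30 bases after the annotated start, 5′ to 3′ on the strand of the gene. Capitals mark the cell cycle homology region TTTGAA, the CCAAT box CCAAT and the E2F sites TTTCGCGC, TTTGGCGC, TTTCCCGC and TTTGCCGC, each read on both strands.
Ccnb2 (chr9:70421525-70421674, minus strand): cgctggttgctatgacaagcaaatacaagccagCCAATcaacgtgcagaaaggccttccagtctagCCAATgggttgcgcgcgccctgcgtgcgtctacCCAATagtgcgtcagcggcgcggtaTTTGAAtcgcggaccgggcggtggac
Cdk1 (chr10:69352883-69353032, minus strand): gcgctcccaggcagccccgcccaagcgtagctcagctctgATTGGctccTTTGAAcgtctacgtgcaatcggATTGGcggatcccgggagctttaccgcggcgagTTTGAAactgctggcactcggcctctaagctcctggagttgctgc
Top2a (chr11:99024160-99024309, minus strand): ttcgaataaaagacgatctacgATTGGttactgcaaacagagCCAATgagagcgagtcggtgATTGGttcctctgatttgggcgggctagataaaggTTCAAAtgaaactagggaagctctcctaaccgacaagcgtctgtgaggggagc
Mcm3 (chr1:20820283-20820432, minus strand): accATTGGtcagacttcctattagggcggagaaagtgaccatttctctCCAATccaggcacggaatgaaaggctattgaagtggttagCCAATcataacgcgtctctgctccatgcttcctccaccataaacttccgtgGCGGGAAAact
Mcm6 (chr1:128359676-128359825, minus strand): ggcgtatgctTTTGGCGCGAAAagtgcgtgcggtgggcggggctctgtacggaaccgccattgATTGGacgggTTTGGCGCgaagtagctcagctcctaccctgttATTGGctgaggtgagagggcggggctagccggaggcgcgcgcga
In this window Ccnb2 held 3 CCAAT boxes and 1 cell cycle homology region, Cdk1 held 2 and 2, and Top2a held 3 and 1, while the values of Cdk1 and Top2a overlapped between the lines. Of the 38 listed genes, 29 matched 35 promoters of 300 bases in the RefSeq table. The cell cycle homology region was in 6 of 9 promoters of G2 and mitosis genes and in 17.9% of all 32851 promoters. A CCAAT box was in 8 of 9 promoters of G2 and mitosis genes, in 8 of 9 of S phase genes and in 37.4% of all promoters. An E2F site was in 4 of 9 promoters of S phase genes and in 2.26% of all promoters, and 3 were in the window of Mcm6, where 2 of them overlapped. The E-box CACGTG, which MYC and its partners bind, was in 4 of the 35 promoters and in 7.15% of all promoters. Over the 35 promoters, 1 pair of different motifs overlapped. A match is a string of letters and was not tested as a binding site.

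On chromosome 9, Ccnb2 lies within a long stretch in which most genes had negative log2 fold changes. The stretch, from Kmt2a to Mto1 in the gene order of GRCm38.p6, had been chosen from these same arrays, and only genes brighter than the table median were counted in it. Genes just before the stretch also ran low in the plot along chromosome 9, so its start is not sharp. Some of these genes passed the test as lower in H10 cells. All of them are counted below with the rest of chromosome 9, which raises the share of lower genes there. Without Ccnb2 it held 204 genes with a median log2 fold change of -0.34 (quartiles -0.46 and -0.19), against a median of -0.04 over the 419 other genes of chromosome 9 and -0.02 over 10565 genes of other chromosomes. By limma, 62 of the 204, or 30.4%, were lower in H10 cells, against 21 of the 419 (5.01%) and 103 of the 10565 (0.975%), and 3 of the 204 were higher. Of the 20 genes nearest to Ccnb2, 10 on each side, 18 (90.0%) had a negative log2 fold change, against 61.1% on the rest of chromosome 9 and 58.4% on other chromosomes, and the median of the 20 was -0.39. The log2 fold change of Ccnb2, -0.37, thus lay between the quartiles of its neighbours, and the part of the position in the difference of Ccnb2 was not tested. A further 2 genes of the cell cycle lists lie in this stretch. Kif23, which encodes a kinesin of the midbody in cytokinesis, averaged 12.14 in H10 cells and 12.45 in C8 cells on the log2 scale (log2 fold change -0.30, adjusted p = 0.087). Atm, the kinase that signals DNA breaks to p53, had 10.15 in H10 and 10.58 in C8 cells (log2 fold change -0.43, adjusted p = 0.0893).

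**Figure D2:**
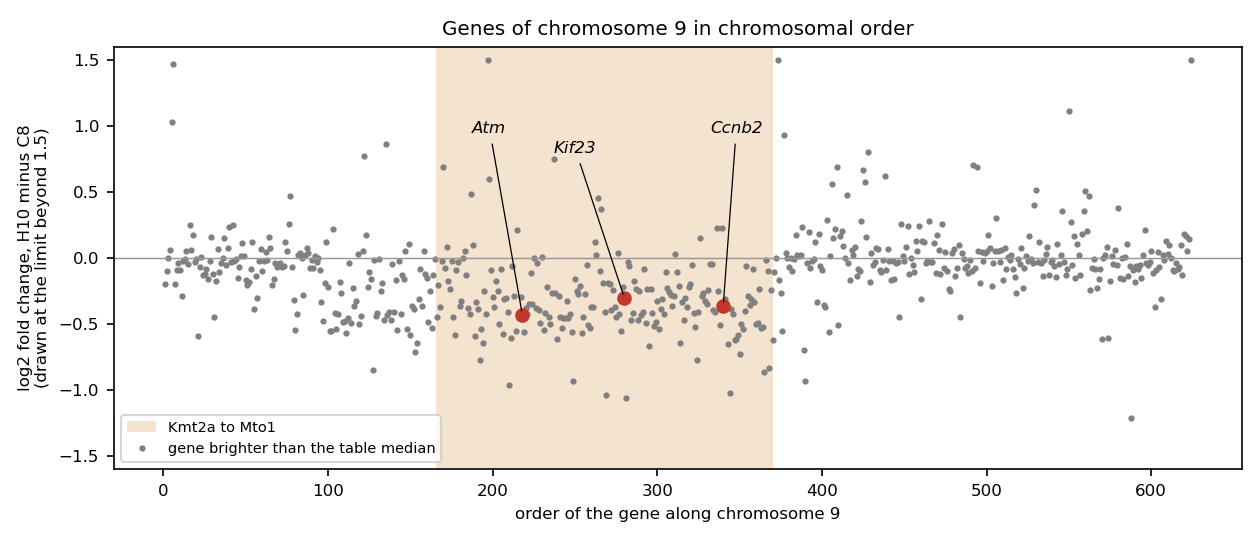
Log2 fold change, H10 minus C8, of 624 genes of chromosome 9 brighter than the table median, in chromosomal order, with values beyond 1.5 in either direction drawn at the limit. The shaded stretch from Kmt2a to Mto1 holds Ccnb2, Kif23 and Atm, at -0.37, -0.30 and -0.43, among neighbours with a median of -0.34.

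Genes of S phase showed no call in either direction. Their 9 log2 fold changes ran from -0.18 to 0.11 with a median of -0.01, and all individual 95% intervals lay between -0.38 and 0.35, so that differences beyond 1.30-fold toward C8 and 1.28-fold toward H10 cells lay outside all of them. Mcm5, a subunit of the MCM helicase that unwinds DNA at replication forks, had the largest difference, with log2 values of 12.03, 11.89 and 11.81 on the 3 H10 arrays, against 12.17, 12.09 and 12.01 in C8. Its arrays overlapped between the lines, and the log2 fold change was -0.18 (standard error 0.08, adjusted p = 0.467). The other helicase subunits Mcm2, Mcm3, Mcm4, Mcm6 and Mcm7 had log2 fold changes of -0.11, -0.14, 0.01, 0.05 and -0.09. Pcna, the sliding clamp of DNA polymerase, was level to within 0.10 log2 units over all arrays, with 13.74, 13.82 and 13.82 on the 3 H10 arrays, against 13.75, 13.84 and 13.79 in C8. Rrm2, the regulated subunit of ribonucleotide reductase, and Tyms, which makes thymidylate, had log2 fold changes of 0.11 (95% interval -0.13 to 0.35) and -0.01 (95% interval -0.22 to 0.21).

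Among the D-type cyclins, Ccnd2 stood apart without passing the test. Cyclin D2 (Ccnd2) had log2 values of 8.16, 8.39 and 8.20 in H10 cells, against 8.64, 8.69 and 8.78 in C8. All H10 arrays lay below all C8 arrays, at 8.25 ± 0.12 in H10 and 8.70 ± 0.07 in C8 cells (SD, n = 3 each), a log2 fold change of -0.45 ± 0.08 (SE, adjusted p = 0.0533 from limma). Its value lay between the median and the upper quartile of each array, whereas cyclin D1 (Ccnd1) was among the bright features. Ccnd1 had 13.05, 12.84 and 12.84 on the 3 H10 arrays, against 13.26, 13.02 and 13.08 in C8, with overlap between the lines and a log2 fold change of -0.21 (95% interval -0.44 to 0.02). Cyclin D3 (Ccnd3) had a log2 fold change of -0.01. Their kinase partners Cdk4 and Cdk6 had 0.02 (95% interval -0.11 to 0.15) and 0.06 (95% interval -0.21 to 0.33).

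Cyclin E genes and Cdk2, which act at the start of S phase, did not pass the test either. Cyclin E2 (Ccne2) had log2 values of 11.47, 11.17 and 11.06 on the 3 H10 arrays, against 11.17, 11.06 and 10.91 in C8. The lines overlapped, and H10 replicate 1 stood above the other arrays (log2 fold change 0.19, 95% interval -0.11 to 0.48, adjusted p = 0.689). Cyclin E1 (Ccne1) had a log2 fold change of 0.08. Cdk2 had 11.35, 11.35 and 11.41 on the 3 H10 arrays, against 11.56, 11.44 and 11.47 in C8, without overlap but with a log2 fold change of only -0.12 (adjusted p = 0.555).

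Of the CDK inhibitors, 5 of 6 were measured and all of these had small negative differences, from -0.17 to -0.03, none of which passed the test. The count at an unadjusted p under 0.05 was also 0 by limma. Among all genes, 60.6% had a negative log2 fold change. Cdkn2d, which encodes the INK4 inhibitor p19, had log2 values of 8.30, 8.32 and 8.32 on the 3 H10 arrays, against 8.67, 8.36 and 8.41 in C8. The lines did not overlap, and C8 replicate 1 stood above the other C8 arrays (log2 fold change -0.17, adjusted p = 0.595). Cdkn1b, which encodes p27 of the Cip/Kip family, had 11.42, 11.42 and 11.65 on the 3 H10 arrays, against 11.69, 11.57 and 11.56 in C8. It overlapped between the lines, with a log2 fold change of -0.11 (95% interval -0.32 to 0.10). When the features of this gene were averaged the value was -0.02. Cdkn2c, which encodes the INK4 inhibitor p18, had -0.14 (95% interval -0.30 to 0.02). Cdkn1c and Cdkn2a, which encode p57 and the INK4 and ARF proteins of that locus, had mean values of 7.94 and 7.68 over the 6 arrays, close to the array medians, and log2 fold changes of -0.06 and -0.03. Background was not measured, so a difference of these dim features could be understated. The intervals of all 5 inhibitors lay between -0.39 and 0.11.

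Myc, a transcription factor that promotes growth and cell cycle entry, had the largest difference of the list and the widest spread. Its log2 values were 12.46, 11.98 and 12.10 in H10 cells, against 12.08, 11.21 and 10.94 in C8. The lines overlapped, since C8 replicate 1 lay above H10 replicate 2. The mean was 12.18 ± 0.25 in H10 and 11.41 ± 0.60 in C8 cells (SD, n = 3 each), a log2 fold change of 0.77 ± 0.30 (SE, 95% interval 0.06 to 1.48, adjusted p = 0.371 from limma). With single arrays left out, the log2 fold change of Myc ran from 0.54 without C8 replicate 3 (adjusted p = 0.608) to 1.11 without C8 replicate 1 (adjusted p = 0.0521), and the highest adjusted p was 0.653, without H10 replicate 1. The retinoblastoma gene Rb1 had 10.57, 10.69 and 10.59 on the 3 H10 arrays, against 10.86, 10.75 and 10.73 in C8. Its lines did not overlap, and the log2 fold change was -0.16 (adjusted p = 0.421). The factors E2f1 and E2f2, which drive the genes of S phase, had log2 fold changes of 0.03 and -0.28 (95% interval of E2f2 -0.62 to 0.06), and the arrays of both overlapped.

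Over the 36 genes, 5 had every H10 array below every C8 array, Ccnb2, Ccnd2, Cdk2, Cdkn2d and Rb1, and 0 had every H10 array above. Among all genes, 12.7% lay below and 7.74% above in this way, and among the genes brighter than the table median 16.5% and 11.2% did. With 3 against 3 arrays, the smallest p that a two-sided exact permutation test can give is 0.10.

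**Figure D3:**
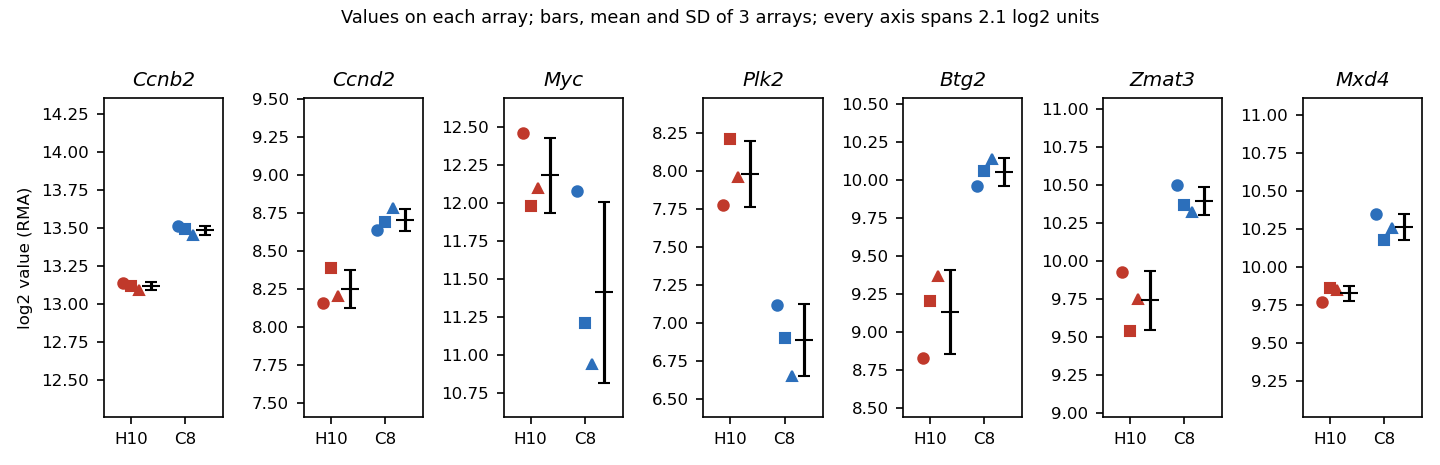
Log2 values of Ccnb2, Ccnd2 and Myc and of 4 genes from the wider lists that passed the test, on each array of H10 (left, red) and C8 cells (right, blue), with the mean and SD of 3 arrays. Circles, squares and triangles are replicates 1, 2 and 3. The lines are separate for every gene except Myc, where C8 replicate 1 lies among the H10 arrays.

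Other genes of the cell cycle were taken from 7 lists chosen by role, of which 168 genes were measured. Among 38 genes of replication licensing and DNA synthesis, 52 of mitosis, 15 of the E2F, pocket protein and DREAM group, 13 further cyclins, CDKs and CDK regulators and 19 of the ubiquitin ligases SCF and APC/C, none passed the test in either direction by limma. At an unadjusted p under 0.05, 4, 3, 0, 1 and 1 of them did, all lower in H10 cells. These counts were 10.5%, 5.77%, 0%, 7.69% and 5.26% of the lists. Such a p was found for 13.8% of all genes when both directions were counted. Of the 19930 genes, 1528 were lower and 1216 higher in H10 cells at that p. The median log2 fold changes of these lists were -0.04, -0.06, -0.07, -0.05 and -0.02, against -0.03 for all genes.

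**Figure D4:**
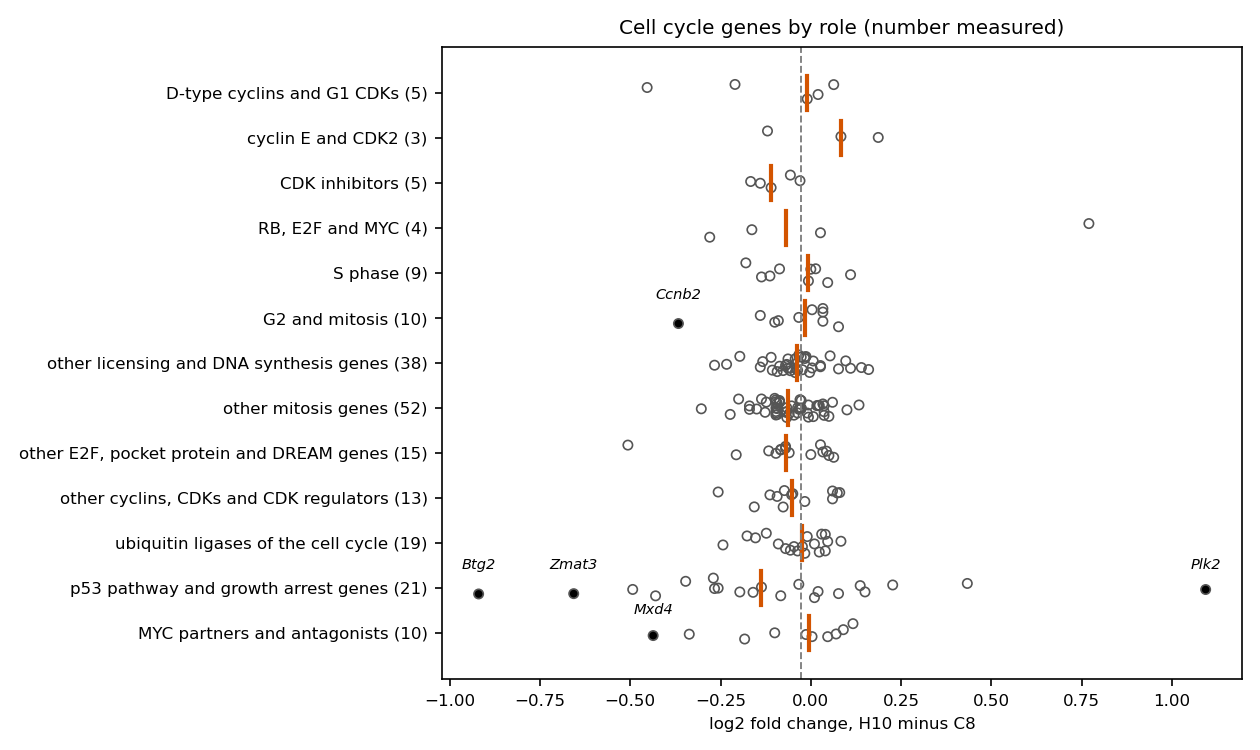
Log2 fold change, H10 minus C8, of each of the 36 cell cycle genes and of 168 further genes by role; filled points passed the test, orange bars are medians and the dashed line is the median of all genes, -0.03. Points of replication and mitosis lie between -0.37 and 0.16, and the p53 pathway and growth arrest genes spread from -0.92 to 1.09.

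Among the 21 growth arrest and p53 pathway genes on the arrays, 1 was higher in H10 cells, where 1.85% of all genes were, 2 were lower, where 1.04% of all genes were, and 18 missed the threshold. At an unadjusted p under 0.05, 2 were higher and 9 were lower, together 52.4% of the list. Such a p was found for 13.8% of all genes and 20.2% of those brighter than the table median. Atm, at -0.43, lies in the chromosome 9 stretch, and Chek1, at -0.49, lies before it among the genes that also ran low. The part of the position in their differences was not tested. Plk2, a Polo-like kinase that p53 induces, had log2 values of 7.78, 8.21 and 7.96 on the 3 H10 arrays, against 7.12, 6.90 and 6.65 in C8. The lines were separate, at 7.98 ± 0.22 in H10 and 6.89 ± 0.24 in C8 cells (SD, n = 3 each), 2.13-fold higher in H10 cells (1.09 ± 0.15 log2 units, SE, adjusted p = 0.0208). In C8 cells Plk2 lay under the median of each array, and the size of its rise is uncertain. Btg2, an antiproliferative gene of the BTG/TOB family that p53 also induces, ran the other way, with 8.83, 9.20 and 9.37 on the 3 H10 arrays, against 9.96, 10.06 and 10.14 in C8. Again the lines were separate, and the log2 fold change was -0.92 (standard error 0.14, adjusted p = 0.0292). Zmat3, a p53 target that encodes an RNA-binding protein, had 9.93, 9.54 and 9.75 on the 3 H10 arrays, against 10.50, 10.37 and 10.32 in C8. It was lower in each H10 array than in any C8 array (difference -0.66 ± 0.11 log2 units, SE, adjusted p = 0.0403).

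With 1 array fewer some of these calls were lost while the differences stayed of similar size. That of Plk2 was lost without H10 replicate 2 or 3 or C8 replicate 2 or 3, with an adjusted p of up to 0.096 and log2 fold changes of 0.97 to 1.21 over all single arrays left out. That of Btg2 was lost without H10 replicate 2 or C8 replicate 1, 2 or 3 (adjusted p up to 0.122, log2 fold changes of -1.04 to -0.77), and that of Zmat3 was lost without H10 replicate 2 or 3 or C8 replicate 1, 2 or 3 (adjusted p up to 0.162, log2 fold changes of -0.75 to -0.56). Mdm2, the ubiquitin ligase of p53, and Sesn1, a p53-induced sestrin, named here after their values were seen, differed by 0.43 (adjusted p = 0.0949) and by -0.35 (adjusted p = 0.0535) on the log2 scale.

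Among 10 partners and antagonists of MYC, Mxd4 fell, where 1.04% of all genes were lower, and 9 genes did not pass the test. The unadjusted p was under 0.05 by limma for 3 of the 10, Mxd4 included, all lower in H10 cells. Counting both directions, 13.8% of all genes and 20.2% of those brighter than the table median had such a p. Mxd4, which competes with MYC for its partner MAX, had log2 values of 9.77, 9.86 and 9.85 on the 3 H10 arrays, against 10.35, 10.18 and 10.26 in C8. The lines were separate (difference -0.44 ± 0.07 log2 units, SE, adjusted p = 0.0328), and without any single array the adjusted p was 0.0618 to 0.143, with log2 fold changes of -0.48 to -0.39. Max itself, the obligate partner of MYC, had a mean of 12.17 in both lines and a log2 fold change of 0.00.

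The arrays of each line also differed among themselves in the S phase and mitosis genes. Of the 19 S phase, G2 and mitosis genes, all of which lay above the upper quartile of every array, 18 had their highest H10 value on H10 replicate 1, where 42.7% of all genes that bright had theirs. On C8 replicate 1, 13 of the 19, or 68.4%, had their highest C8 value, a share close to the 64.7% of all genes that bright. The same 13 were highest on replicate 1 of both lines, against 34.5% of all genes that bright. The mean deviation of these 19 genes from their own means was 0.07, -0.05 and -0.09 on H10 replicates 1, 2 and 3, and 0.08, 0.04 and -0.04 on C8 replicates 1, 2 and 3. The replicate 1 arrays were thus the highest of both lines for these genes, and the range within each line overlapped that of the other. For the CDK inhibitors the mean deviation was -0.05, -0.07 and -0.03 on the 3 H10 arrays, against 0.09, 0.03 and 0.03 in C8. When replicate 1 of H10 and of C8 was left out, an alternative added after seeing the data, the median log2 fold change of the 36 genes was -0.05 and 0 of them passed the test in either direction.

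**Figure D5:**
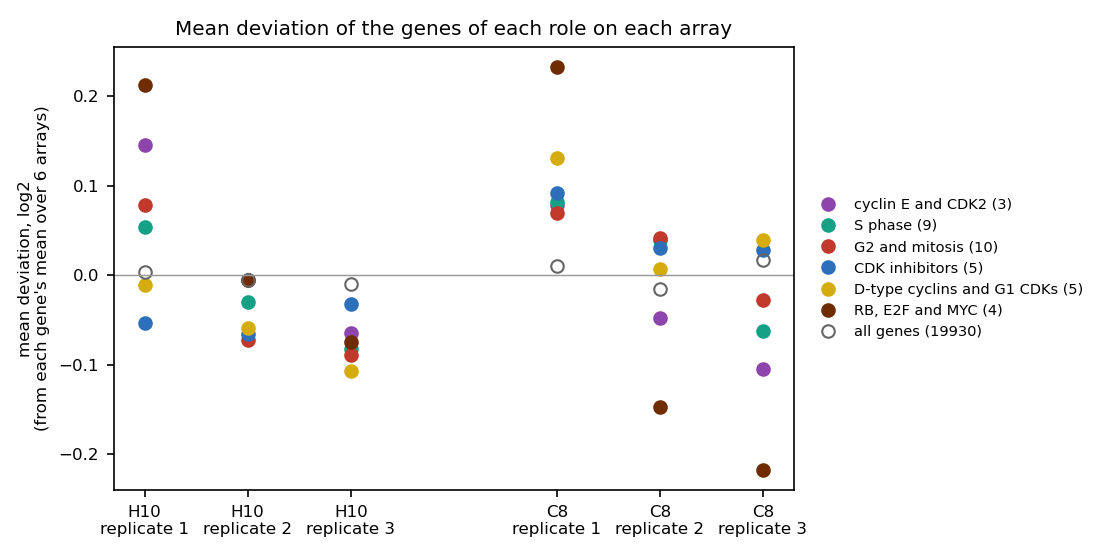
Mean deviation of the genes of each role from their own means over 6 arrays, in log2 units, on each array of H10 (left) and C8 cells (right), with the number of genes in brackets. Every role except the CDK inhibitors was highest on replicate 1 of both lines, while the deviation of all genes stayed between -0.02 and 0.02. Of all genes above the upper quartile of every array, 64.7% had their highest C8 value on C8 replicate 1.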

How the data were processed

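Gene expression of H10 and C8 cells was measured on Affymetrix Mouse Gene ST arrays. The authors normalized the deposited log2 values with RMA, a method that subtracts background, gives all arrays 1 distribution and combines probes into features, so that global differences in RNA amount are removed. Affymetrix Expression Console is named in the processing notes of the submitters, with no version. Values, 2.91 to 14.7, were used as deposited, with no filter. Of 35545 features, 21781 carried 1 gene symbol (19930 genes), and gene names were checked against GRCm38.p6. The number of arrays limits the precision.

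H10 was set against C8 with lmFit and eBayes of limma 3.58.1 under R 4.3.3 (two-sided, 4 residual and 2.57 prior degrees of freedom), p-values adjusted by Benjamini-Hochberg across every feature, and a threshold of 0.05. The script was tested on simulated data. Members and lists were chosen with earlier results of these data known. Array values are given for genes past the test, for those with a log2 fold change of 0.4 or more in size, for the largest of each other role, and for further members chosen after seeing values. From each wider list, up to 4 genes past the test in each direction are named. Alternatives were leaving out arrays, quantile normalization, a replicate block, a filter on dim features, median centring, an intensity trend with a robust prior, adjustment over 1 feature per gene, and the mean of a gene's features. Figures were drawn with matplotlib 3.10.9.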

Additional observations from a re-analysis of the deposited data

How the results depend on the processing

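No member was higher in H10 cells under any of the 14 alternatives. The count of members lower in H10 cells, 1, was 0 without any single array, 0 without replicate 1 of both lines, 0 with the replicate block, 0 with median centring, and 2 (Ccnb2 and Ccnd2) with the filter on dim features, with the intensity trend and robust prior and with the adjustment over 1 feature per gene, for which the adjusted p of Ccnd2 was 0.0187, 0.0499 and 0.0387. The median log2 fold change of the members was -0.07 to -0.01 over all alternatives. In the wider lists, the count of genes higher in H10 cells, 1, was 0 to 1 without single arrays, 0 with the replicate block and 2 with the filter; the count lower, 3, was 0 to 2 without single arrays, 1 without replicate 1 of both lines, 1 with the replicate block, 5 with quantile normalization, 9 with the filter and 6 with the trend. The filter tests fewer features, and the adjustment over 1 feature per gene keeps each unadjusted p and adjusts it over fewer features. The cause of the other changes was not tested. Of the 35 members that did not pass, 34 passed under no alternative, and 11 had a log2 fold change that changed sign, left 0 or reached 0 under at least 1. Over all features, the deviations of same-numbered arrays of the lines correlated at 0.17, -0.00 and -0.12, and those of differently numbered arrays at -0.18 to 0.23. The S phase, G2 and mitosis genes were on average highest on replicate 1 of both lines. Correlations over all features cannot show whether the replicate numbers pair the samples for these genes, and a shared culture or batch was not tested. Over all genes the block gave 225 higher and 71 lower, against 369 and 208 without it, and the filter gave 516 and 423.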
